A study of Homo sapiens with 6 samples.

Results

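Cells make cholesterol and fatty acids from the same precursor, acetyl-CoA, and the 30 genes described here encode enzymes of these pathways, the regulators that control their transcription, and a sterol carrier. They were taken by symbol from a named list, and all 30 were found among the 17100 transcripts of the count table and passed the filter on low counts, which kept 13322 genes. The MDA-MB-231 line, from a human breast adenocarcinoma, was sequenced after vehicle (3 libraries) or after guadecitabine (3 libraries), given at 1 µM for 96 h with the cells then kept without drug for 24 h before harvest. The vehicle is not named in the labels. Guadecitabine (SGI-110) is a dinucleotide of decitabine that is incorporated into DNA and traps DNA methyltransferases, so that methylation is lost as cells divide. All libraries came from 1 cell line in serum-containing medium, and serum supplies cholesterol and fatty acids.

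Transcription of many of these genes is known to be governed by the sterol regulatory element-binding proteins (SREBPs), which are made as precursors in the membrane of the endoplasmic reticulum. When sterols are scarce, the escort protein SCAP carries the precursors to the Golgi, where proteases release the part that enters the nucleus. When sterols are plentiful, the INSIG proteins hold SCAP back. SREBP1, from SREBF1, is known mainly for fatty acid genes and SREBP2, from SREBF2, for cholesterol genes, and INSIG1 and both SREBF genes are themselves SREBP targets.

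Library totals ranged from 8792127 counts in guadecitabine replicate 2 to 22277442 in vehicle replicate 3. Vehicle replicate 3 stood apart, with 20 transcripts at 0 counts against 1593 to 2517 in the others, and it was the lowest vehicle library for 22 of the 30 genes. The share of all genes tested for which it was the lowest was not counted. The 5 markers of this line that were looked up as high, VIM, CD44, AXL, MSN and CAV1, summed to 133660 to 140892 normalized counts in vehicle and to 138711 to 154268 after guadecitabine. Of 6 genes looked up as low or absent in this line, 1 to 3 were at 0 in each library other than vehicle replicate 3 and none in vehicle replicate 3. GATA3, EPCAM and CDH1 were present in all 6 libraries, CDH1 with 6 to 87 counts. ESR1, PGR and FOXA1 had 67, 43 and 27 counts in vehicle replicate 3 and at most 4 in any other library. The source of these counts was not tested. The markers of other cell types PTPRC, COL1A1, PECAM1 and ALB summed to 178 to 407 normalized counts in vehicle and to 1848 to 2406 after guadecitabine. COL1A1 alone gave 126 to 293 of these in vehicle and 1761 to 2326 after guadecitabine. PTPRC and ALB had at most 3 counts in each library but vehicle replicate 3, where they had 36 and 11. The part of COL1A1 and of the line's own markers, of which VIM and CD44 rose and AXL and CAV1 fell, in the results below was not tested.

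After guadecitabine, 23 of the 30 genes fell, 0 rose and 7 were not called at an adjusted p of 0.05 in the quasi-likelihood test of edgeR, adjusted by Benjamini-Hochberg over the 13322 genes tested. Of all genes tested, 18.4% were called lower and 19.3% higher. The median log2 fold change of the 30 genes was -0.79, against 0.02 over all genes tested, and 29 of the 30 values were negative, against 48.8% of all genes. In 24 of the 30 genes every guadecitabine library lay below every vehicle library, which was so for 25.0% of all genes. Of the 30 genes, 9 were called lower with a fall of at least 2-fold, against 5.61% of all genes tested. Among genes called lower, these were 9 of 23, against 747 of 2446 over all genes. Leaving out vehicle replicate 3 gave 25 of the 30 genes lower, against 19.4% of all genes. In bulk RNA, fewer cells expressing a gene and less of its RNA per cell cannot be told apart.

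**Figure D1:**
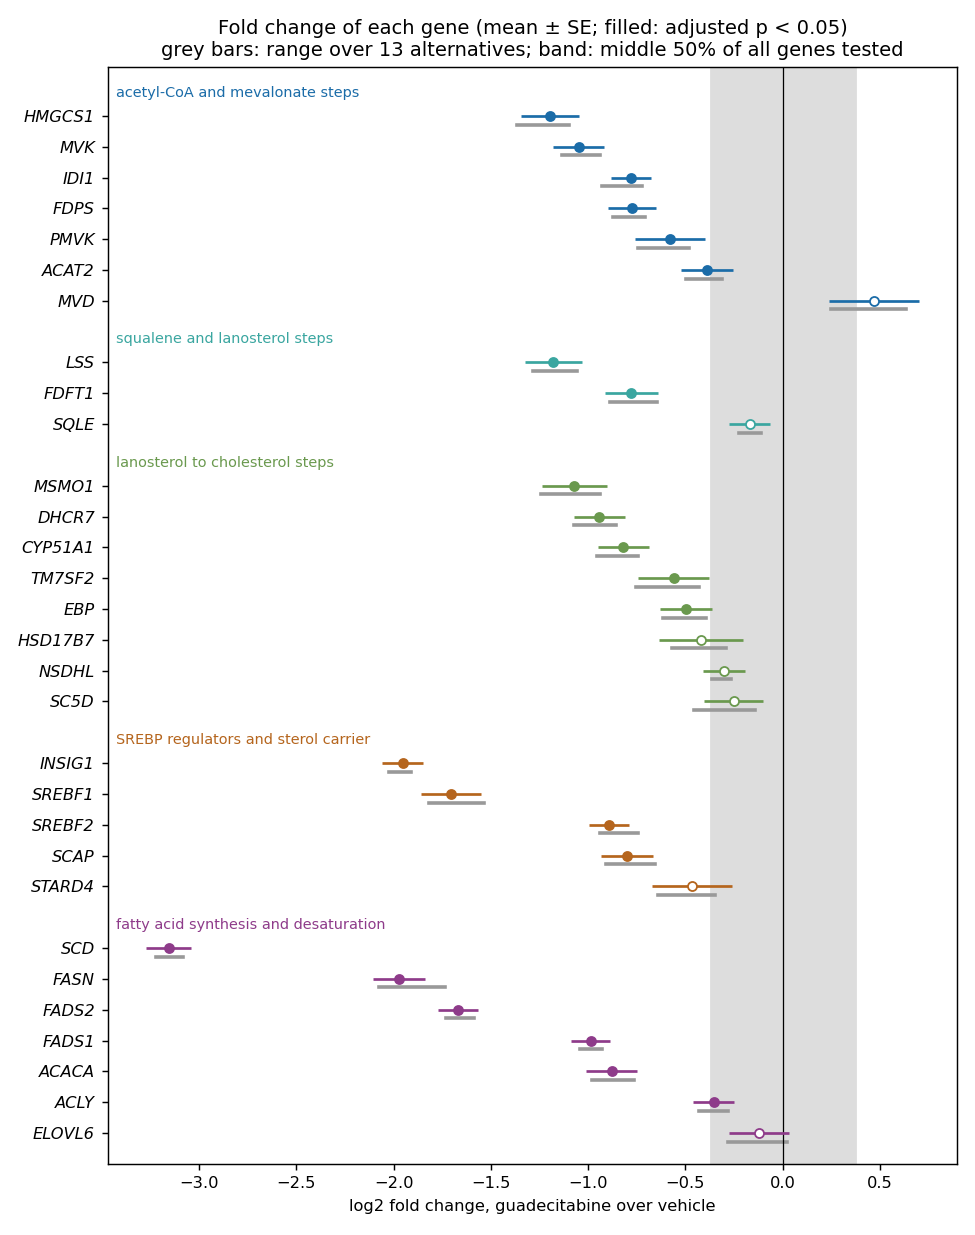
Log2 fold change (x axis, guadecitabine over vehicle) of each of the 30 genes (y axis, grouped and coloured by role), as a point with its SE, filled where the adjusted p was under 0.05. Grey bars give the range over 13 alternative analyses (GC and length offsets included) and the grey band the interquartile range of all genes, -0.37 to 0.38. SCD lies farthest to the left at -3.16 and MVD is the one point to the right of 0.

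Taken as a share of each library, the 30 genes held 0.582%, 0.582% and 0.570% of all counts in vehicle replicates 1, 2 and 3. The shares were 0.252%, 0.261% and 0.261% after guadecitabine, so that the groups lay far apart and the libraries within a group lay close together. The exact 95% binomial interval was widest in vehicle replicate 2, at 0.579% to 0.586%, and it covers counting error only. SCD and FASN together made up 31.8%, 31.4% and 32.5% of the counts of the 30 genes in vehicle and 11.6%, 13.2% and 12.4% after guadecitabine.

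**Figure D2:**
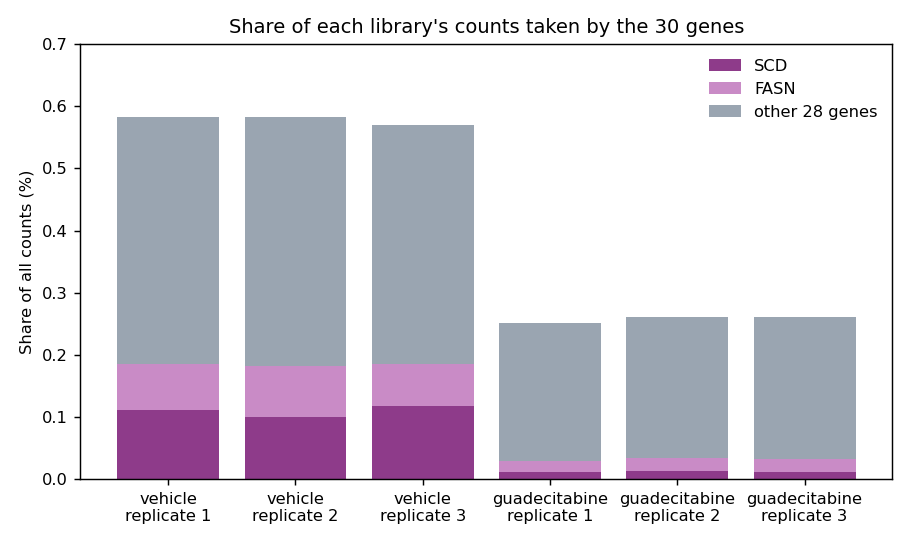
Share of all counts (y axis, percent) taken by the 30 genes in each of the 6 libraries (x axis), stacked as SCD, FASN and the other 28 genes. The vehicle bars reach 0.570% to 0.582% and the guadecitabine bars 0.252% to 0.261%, and the SCD segment spans 0.101% to 0.118% in vehicle and 0.0116% to 0.0138% after guadecitabine.

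The genes of fatty acid synthesis and desaturation held the deepest falls, with 6 of 7 lower and a median log2 fold change of -0.99. SCD, the desaturase that makes oleate and palmitoleate from saturated fatty acids, lies at chr10:102106772-102124588 on the plus strand (hg19). It had 21013, 18727 and 20357 normalized counts in vehicle and 2013, 2463 and 2272 after guadecitabine. Every treated library was far below every vehicle library, and the level fell to 11.2% of vehicle (log2 fold change -3.16, SE 0.115, adjusted p = 2.28e-07, edgeR). By log2 fold change SCD ranked 30 from the lowest among all 13322 genes tested. Of the stretches of 50 bases in its exons, 88.3% occur once in the genome, so that some of its reads may be shared with copies elsewhere.

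FADS2 and FADS1, neighbours on opposite strands at chr11:61583675-61634826 and chr11:61567097-61584529, encode the desaturases that act in the synthesis of long polyunsaturated fatty acids. FADS2 had 7518, 7174 and 6986 normalized counts in vehicle and 2111, 2483 and 2233 after guadecitabine (log2 fold change -1.67, SE 0.103, adjusted p = 5.10e-06, edgeR). FADS1 fell less, with a log2 fold change of -0.99. In neither gene did the groups overlap. The exons of the pair overlap by 5.6% of FADS2 and 3.3% of FADS1, and the use of strand in the counting is not given in the sources used here.

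FASN, the multienzyme that builds palmitate, lies at chr17:80036214-80056106 on the minus strand. It had 13676, 15303 and 11509.7 normalized counts in vehicle and 3067, 3724 and 3527 after guadecitabine, 25.5% of the vehicle level (log2 fold change -1.97, SE 0.133, adjusted p = 8.99e-06, edgeR). Again the groups lay well apart. ACACA, which makes the malonyl-CoA that FASN uses, had a log2 fold change of -0.88. ACLY, which supplies cytosolic acetyl-CoA from citrate, fell by 0.36 on the log2 scale (adjusted p = 0.0258, edgeR). That call was lost without vehicle replicate 1 (adjusted p = 0.111), vehicle replicate 2 (0.101), guadecitabine replicate 1 (0.0508) or guadecitabine replicate 2 (0.0763).

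ELOVL6, which elongates the palmitate made by FASN, was the only gene of this group not called. Its normalized counts were 1543, 1471 and 1331 in vehicle and 1601, 1044 and 1332 after guadecitabine, with the highest and the lowest value both in treated libraries. The log2 fold change was -0.12 with a 95% interval of -0.47 to 0.23, and it turned to 0.021 without guadecitabine replicate 2. The whole interval lay above the log2 fold changes of SCD, FASN, FADS2, FADS1 and ACACA, but it held that of ACLY, -0.36.

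Among the regulators and the sterol carrier, 4 of 5 genes fell, with a median log2 fold change of -0.89. INSIG1, which retains SCAP in the endoplasmic reticulum, lies at chr7:155089486-155101945 on the plus strand. It had 4459, 4146 and 4617 normalized counts in vehicle and 1214, 1073 and 1125 after guadecitabine. The libraries within each group were close together and the level fell to 25.8% of vehicle (log2 fold change -1.95, SE 0.104, adjusted p = 2.11e-06, edgeR).

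Both SREBP genes fell, SREBF1 by more than SREBF2. SREBF1 (chr17:17714663-17740325, minus strand) had 4981, 5276 and 4085 normalized counts in vehicle and 1199.9, 1699 and 1514 after guadecitabine (log2 fold change -1.70, SE 0.154, adjusted p = 4.95e-05, edgeR). SREBF2 (chr22:42229083-42303312, plus strand) had 4499.9, 4278 and 4415 in vehicle and 2145, 2522 and 2444 after guadecitabine (log2 fold change -0.89, SE 0.102, adjusted p = 1.86e-04, edgeR). The groups did not overlap for either gene, and the 95% interval of the log2 fold change was -2.05 to -1.36 for SREBF1 and -1.12 to -0.66 for SREBF2. The difference between the falls of these genes was not tested.

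SCAP, which binds both SREBP precursors, had 2394, 2441 and 2009 normalized counts in vehicle and 1138, 1510.1 and 1294 after guadecitabine (log2 fold change -0.80, SE 0.134, adjusted p = 0.00169, edgeR). All treated libraries were below all vehicle libraries. STARD4, a soluble carrier that moves cholesterol between membranes, was not called and its groups overlapped. Its log2 fold change was -0.47 with a 95% interval of -0.92 to -0.01 (adjusted p = 0.102, edgeR), and it was called lower without vehicle replicate 3 (log2 fold change -0.64, adjusted p = 0.0151) or guadecitabine replicate 1 (-0.63, adjusted p = 0.0466).

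RefSeq promoters (GRCh38.p14) were read for letters known from sterol genes, over windows from 250 bases before to 50 after each start. Of the 30 genes, 26 had entries, with 35 windows in all, and SQLE, FASN, FDFT1 and ACAT2 had none. CCAAT, the box bound by NF-Y, a known partner of SREBPs, occurred on either strand in 20 of the 26 genes (76.9%), against 42.7% of the 10191 tested genes with an entry. By window the shares were 68.6% and 34.1%, and 34.6% over all windows of this length in the table. GGGCGG, the GC box, occurred in 25 of 26 genes against 76.6% of tested genes with an entry, and CACGTG, the E-box, in 4 against 12.5%. TCACNCCAC, a form of the sterol regulatory element, occurred in SREBF2 alone (3.8% of the 26, against 1.5%). None of these motifs contains another, all were sought on both strands, and a match is only a match of letters. The number of CG pairs in a window, the site of the methylation that guadecitabine removes, had a median of 29 over the 35 windows of the 26 genes. Over the 14896 windows of tested genes the median was 25. Methylation was not analysed here.

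The 250 bases before the start are shown for the genes with the deepest falls among those with an entry, for both SREBP genes, and for MVD, the one gene with a positive value. Each is written 5′ to 3′ on the strand of the gene, with CCAAT (or ATTGG on the other strand), CACGTG and TCACNCCAC in capitals. They lie in GRCh38.p14 at chr22:41832855-41833104 (SREBF2, plus strand), chr10:100346983-100347232 (SCD, plus strand), chr7:155297628-155297877 (INSIG1, plus strand), chr17:17836987-17837236 (SREBF1, minus strand), chr16:88663092-88663341 (MVD, minus strand). SREBF2, SCD, INSIG1 and MVD hold at least 1 CCAAT box, and SREBF1 holds none of the capitalised motifs in the bases shown. MVD, which was not called, holds 3 CCAAT boxes. The part of these letters in the falls was not tested.
SREBF2: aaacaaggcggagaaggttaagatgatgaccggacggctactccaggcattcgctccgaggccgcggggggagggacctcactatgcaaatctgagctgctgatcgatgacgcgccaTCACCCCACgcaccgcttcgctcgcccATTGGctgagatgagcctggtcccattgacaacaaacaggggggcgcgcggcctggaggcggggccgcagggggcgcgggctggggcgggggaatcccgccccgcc
SCD: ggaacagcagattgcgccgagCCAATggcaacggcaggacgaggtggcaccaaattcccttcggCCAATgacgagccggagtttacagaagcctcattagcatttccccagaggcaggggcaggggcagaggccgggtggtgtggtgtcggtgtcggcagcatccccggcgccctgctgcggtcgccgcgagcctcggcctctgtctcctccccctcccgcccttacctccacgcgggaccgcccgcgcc
INSIG1: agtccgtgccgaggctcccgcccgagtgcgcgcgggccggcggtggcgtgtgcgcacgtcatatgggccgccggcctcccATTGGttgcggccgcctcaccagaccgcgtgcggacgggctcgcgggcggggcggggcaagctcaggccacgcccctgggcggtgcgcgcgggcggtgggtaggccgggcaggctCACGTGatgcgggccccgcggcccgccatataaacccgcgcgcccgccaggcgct
SREBF1: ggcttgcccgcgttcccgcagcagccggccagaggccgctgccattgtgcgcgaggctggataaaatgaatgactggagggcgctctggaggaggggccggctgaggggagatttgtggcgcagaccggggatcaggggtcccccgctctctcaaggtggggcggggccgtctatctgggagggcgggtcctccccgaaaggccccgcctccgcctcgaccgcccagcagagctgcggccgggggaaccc
MVD: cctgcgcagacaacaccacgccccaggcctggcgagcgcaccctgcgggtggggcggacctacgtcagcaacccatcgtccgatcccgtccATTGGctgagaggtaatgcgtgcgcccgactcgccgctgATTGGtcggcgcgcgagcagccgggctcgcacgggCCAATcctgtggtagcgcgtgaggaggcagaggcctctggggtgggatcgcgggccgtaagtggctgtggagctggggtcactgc

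The 7 genes from acetyl-CoA to farnesyl diphosphate include 6 that fell, with a median log2 fold change of -0.77. HMGCS1, the cytosolic HMG-CoA synthase (chr5:43287572-43313614, minus strand), had 1073, 1048 and 879 normalized counts in vehicle and 524, 407 and 373 after guadecitabine (log2 fold change -1.20, SE 0.150, adjusted p = 3.22e-04, edgeR). MVK, the mevalonate kinase (chr12:110011500-110035075, plus strand), had 1284, 1452 and 1229.5 in vehicle and 543, 720.5 and 661 after guadecitabine (log2 fold change -1.05, SE 0.132, adjusted p = 3.24e-04, edgeR). Both genes fell to under the lowest vehicle library in all 3 treated libraries. IDI1, which isomerises isopentenyl diphosphate, and FDPS, which makes farnesyl diphosphate, had log2 fold changes of -0.78 and -0.77. Exons of the antisense gene RUSC1-AS1 overlap 49.2% of those of FDPS, and without strand their reads cannot be told apart.

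ACAT2, the cytosolic thiolase that joins acetyl-CoA units, fell by 0.39 on the log2 scale (adjusted p = 0.0444, edgeR), and its exons overlap those of TCP1 on the other strand by 29.9%. PMVK, the phosphomevalonate kinase, fell by 0.58 on the log2 scale (adjusted p = 0.0321, edgeR) with 1 treated library above the lowest vehicle library. The call of ACAT2 was lost without vehicle replicate 1, vehicle replicate 2, guadecitabine replicate 2 or guadecitabine replicate 3 (adjusted p = 0.165, 0.154, 0.118 and 0.0959). That of PMVK was lost without vehicle replicate 1, vehicle replicate 2, guadecitabine replicate 1 or guadecitabine replicate 3 (adjusted p = 0.119, 0.109, 0.0845 and 0.136).

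MVD, the decarboxylase that follows PMVK, had the one positive value of the 30 genes. It had 1170.5, 1276 and 712 normalized counts in vehicle and 1173, 1838 and 1375 after guadecitabine. The lowest value was vehicle replicate 3 and the highest guadecitabine replicate 2, and the groups overlapped. The log2 fold change of 0.47 had a 95% interval of -0.05 to 0.99 (adjusted p = 0.139, edgeR), and this interval lay above the values of HMGCS1, MVK, IDI1 and FDPS. With offsets for GC content and length MVD was called higher, at 0.58 (adjusted p = 0.00415, edgeR). It was at 0.25 without vehicle replicate 3 (adjusted p = 0.279) and at 0.28 without guadecitabine replicate 2 (adjusted p = 0.379, edgeR).

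Of the 3 genes that carry farnesyl diphosphate to lanosterol, 2 fell. LSS, the lanosterol synthase (chr21:47608360-47648738, minus strand), had 3899.9, 4026 and 3132 normalized counts in vehicle and 1349, 1824 and 1720.3 after guadecitabine (log2 fold change -1.18, SE 0.147, adjusted p = 3.17e-04, edgeR). FDFT1, the squalene synthase at the branch into sterols, had 3158, 3489 and 3325 in vehicle and 2047, 1555 and 2196 after guadecitabine (log2 fold change -0.78, SE 0.136, adjusted p = 0.00209, edgeR). In both genes the treated libraries lay below the vehicle libraries without overlap. SQLE, the squalene epoxidase between them and a known control point of the pathway, had 555, 556 and 626 in vehicle and 551, 503 and 491 after guadecitabine. Its treated libraries were also lower, by a small margin that did not pass the test (log2 fold change -0.17, 95% interval -0.41 to 0.07, adjusted p = 0.243, edgeR).

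From lanosterol to cholesterol, 5 of 8 genes fell, and the median log2 fold change was -0.53. MSMO1, the oxygenase that removes methyl groups from the sterol ring (chr4:166248818-166264314, plus strand), had 1495, 1634 and 1046 normalized counts in vehicle and 727, 621 and 633 after guadecitabine (log2 fold change -1.07, SE 0.168, adjusted p = 0.00115, edgeR). DHCR7, the reductase that ends in cholesterol (chr11:71145457-71159477, minus strand), had 3757, 3509 and 3265 in vehicle and 1610.4, 2159 and 1724 after guadecitabine (log2 fold change -0.94, SE 0.131, adjusted p = 5.72e-04, edgeR). These groups did not overlap in either gene. CYP51A1, the lanosterol demethylase, had a log2 fold change of -0.82, with 74.3% of its stretches of 50 bases unique.

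The sterol isomerase EBP fell by 0.50 and the sterol reductase TM7SF2 by 0.56 on the log2 scale (adjusted p = 0.0184 and 0.0391, edgeR), with overlapping groups in TM7SF2. EBP lost its call without vehicle replicate 1, vehicle replicate 2 or guadecitabine replicate 3 (adjusted p = 0.0512, 0.0813 and 0.0854). TM7SF2 lost it without vehicle replicate 1, vehicle replicate 2, guadecitabine replicate 1 or guadecitabine replicate 3 (adjusted p = 0.103, 0.145, 0.0983 and 0.155).

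The other 3 genes of these steps were not called. NSDHL, a dehydrogenase that acts with MSMO1, had -0.30 on the log2 scale (95% interval -0.54 to -0.06, adjusted p = 0.0529, edgeR), and without vehicle replicate 3 it was called lower (-0.36, adjusted p = 0.0339). SC5D, a sterol desaturase, had a log2 fold change of -0.25 (95% interval -0.60 to 0.09) and overlapping groups, and without guadecitabine replicate 1, its highest library, it was called lower (-0.46, adjusted p = 0.00752, edgeR). SC5D was at -0.14 without guadecitabine replicate 2 (adjusted p = 0.493) and at -0.19 without guadecitabine replicate 3 (adjusted p = 0.474, edgeR). HSD17B7, a keto reductase of the same demethylation, had 101, 112 and 114 normalized counts in vehicle and 95.5, 63.1 and 81.8 after guadecitabine, and -0.42 on the log2 scale (95% interval -0.91 to 0.06). Only 46.0% of the stretches of 50 bases in the transcript model examined are unique, so that its counts are uncertain. That model has 2541 exon bases against 1523 counted, so the share in the counted bases may differ.

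Per kb of counted exon, the order of the genes by level changed with treatment. In vehicle, SCD was the highest of the 30 at 3664 ± 215 normalized counts per kb (SD, n = 3), just above FDPS at 3568 ± 357, and these neighbours lay within their spread. After guadecitabine FDPS was the highest at 2085 ± 230.3, close to EBP at 1951 ± 302, and SCD was at rank 16 with 411 ± 41.3. INSIG1 went from rank 6 to 15, FASN from 7 to 17 and SREBF1 from 13 to 21. MVD moved the other way, from rank 20 with 567 ± 161 to rank 6 with 787 ± 183. HSD17B7 was the lowest in both groups.

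**Figure D3:**
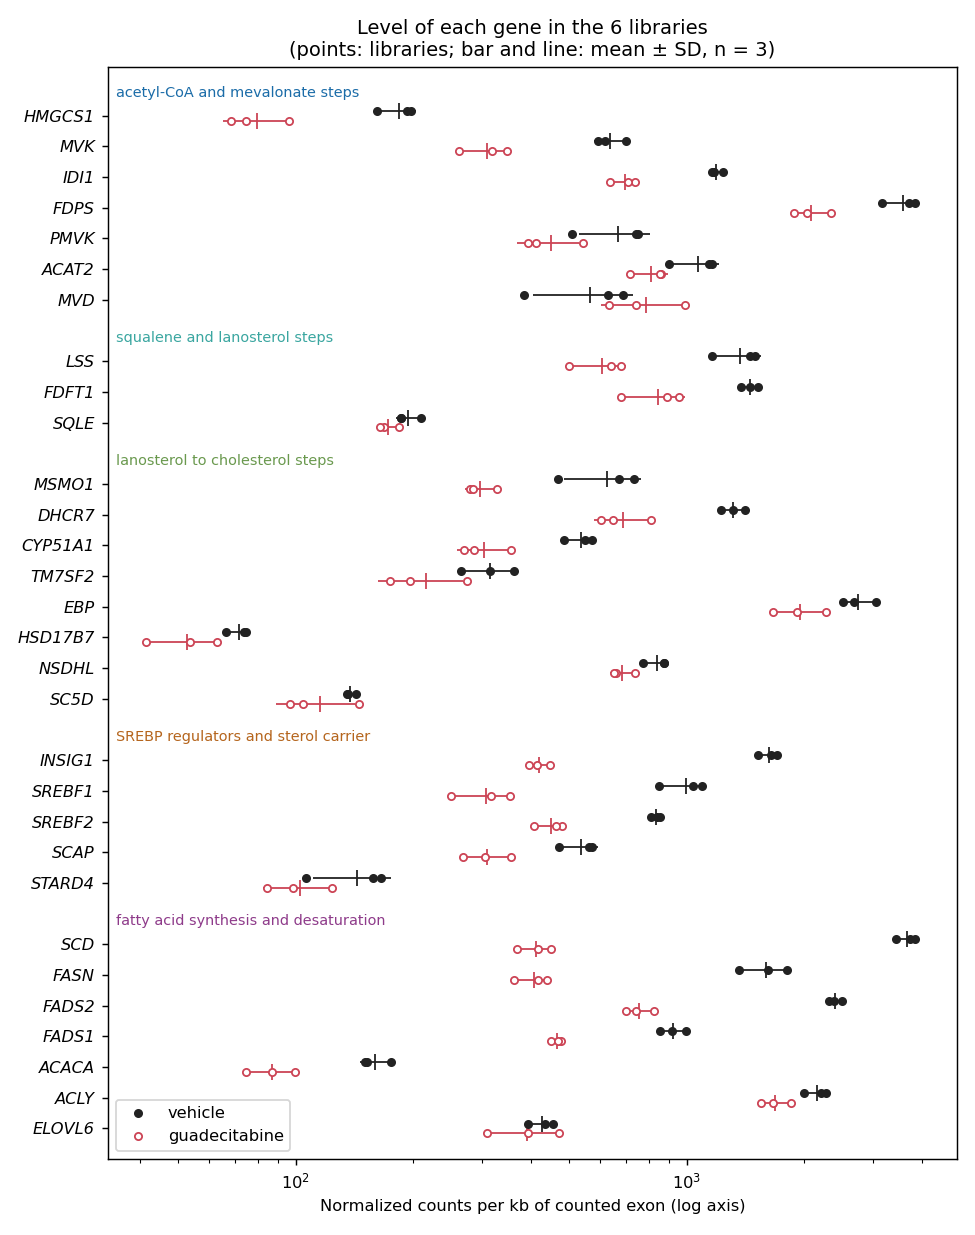
Normalized counts per kb of counted exon (x axis, log scale) of each of the 30 genes (y axis, grouped by role) in the 3 vehicle libraries (filled points) and the 3 guadecitabine libraries (open points), with mean ± SD. The points of SCD, FASN, FADS2, INSIG1 and SREBF1 lie far apart between the groups, and those of ELOVL6 and SC5D overlap.

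Other genes of lipid metabolism were looked up for comparison, in lists made by role. Of 107 genes, 105 were in the table and 103 were tested, of which 24 fell and 17 rose, with a median log2 fold change of -0.08. Other genes of SREBP processing gave 4 lower and 3 higher of 11. INSIG2, the close relative of INSIG1 and named after its value was seen, fell by 0.86 on the log2 scale. PAQR3, a Golgi protein that binds SCAP, rose from 366, 331 and 314 normalized counts to 959, 782 and 766 (log2 fold change 1.31, SE 0.126, adjusted p = 6.79e-05, edgeR). C12orf49, needed for SREBP activation, rose by 0.70 on the log2 scale.

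Genes for cholesterol uptake, storage and export gave 7 lower and 4 higher of 21. LRP8, a receptor of the low-density lipoprotein receptor family, fell from 631, 638 and 662 to 304, 277 and 253 normalized counts (log2 fold change -1.21, SE 0.111, adjusted p = 5.37e-05, edgeR). CH25H, which makes an oxysterol that blocks SREBP processing, rose from 50.5, 33.8 and 52.5 to 171, 171 and 182 (log2 fold change 1.93, SE 0.218, adjusted p = 1.75e-04, edgeR). In both genes the groups did not overlap. Other sterol synthesis enzymes gave 2 lower and 1 higher of 6, with log2 fold changes of -0.72 for C14orf1 and -0.58 for LBR, the latter not called without guadecitabine replicate 3 (adjusted p = 0.0578, edgeR). The isoprenoid branches gave 2 lower and 1 higher of 13, with log2 fold changes of 0.51 for DHDDS, which builds dolichol, and -0.61 for PDSS2, which builds the tail of coenzyme Q. PDSS2 lost its call without vehicle replicate 2 or 3 or guadecitabine replicate 1 or 2, with an adjusted p of at most 0.0695 (edgeR).

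Further genes of fatty acid synthesis and elongation gave 4 lower and 3 higher of 23. SCD5, the other human stearoyl-CoA desaturase, fell from 534, 496 and 581 to 226, 238 and 196 normalized counts (log2 fold change -1.29, SE 0.125, adjusted p = 6.91e-05, edgeR), and TECR, a reductase of the elongation cycle, had a log2 fold change of -0.65. Triglyceride and lipid droplet genes gave 1 lower and 3 higher of 12. G0S2, an inhibitor of the main triglyceride lipase, rose from 6829, 6797 and 5933 to 18879, 24176 and 21106 (log2 fold change 1.71, SE 0.120, adjusted p = 1.08e-05, edgeR), while LPIN1, which makes diacylglycerol, had a log2 fold change of -0.99. With a further list of fatty acid oxidation genes, the 7 lists together gave the 24 lower and 17 higher of 103. These shares are near the 18.4% and 19.3% of all genes tested, and no test of these counts was made.

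**Figure D4:**
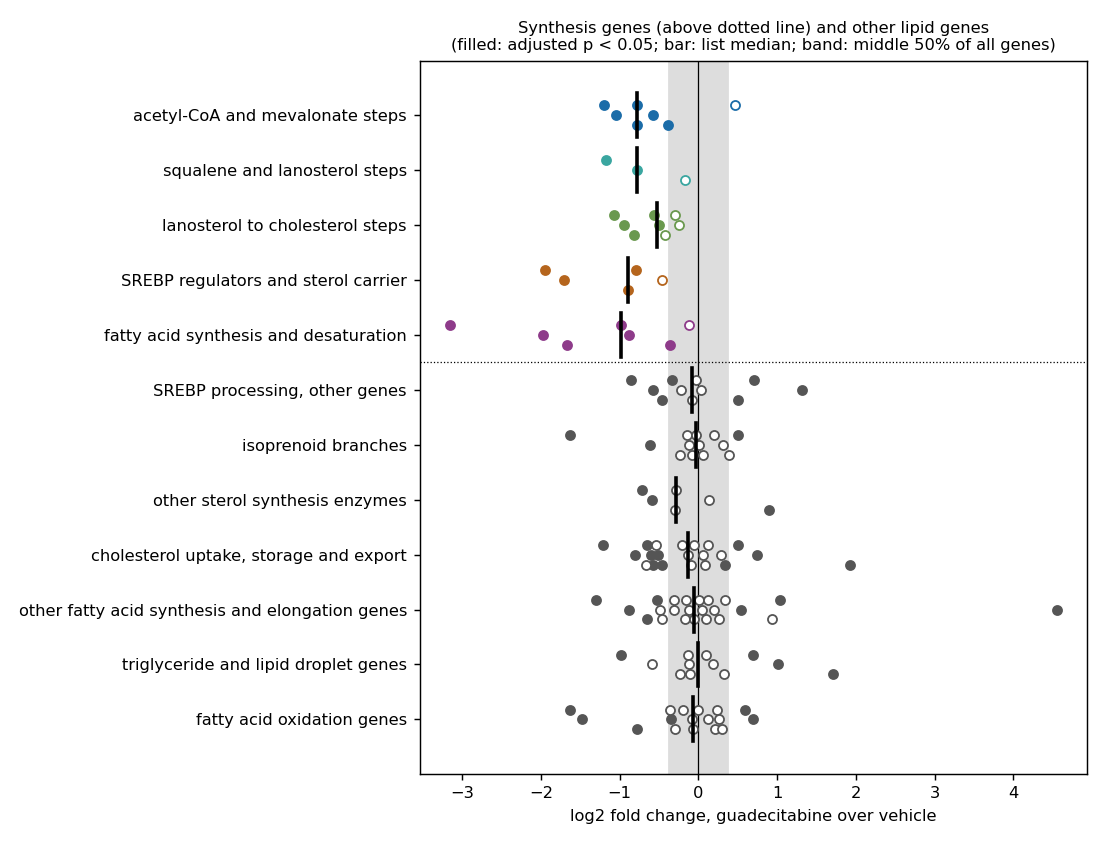
Log2 fold change (x axis, guadecitabine over vehicle) of each gene in the 5 role groups of synthesis genes (above the dotted line) and in 7 lists of other lipid genes (below it), with filled points for an adjusted p under 0.05, black bars for list medians and a grey band for the interquartile range of all genes. The medians of the synthesis groups lie between -0.99 and -0.53 and those of the other lists between -0.29 and -0.01.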

How the data were processed

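RNA was sequenced from MDA-MB-231 cells in 6 libraries (TruSeq RNA kit), 3 a group, which by the methods came from independent experiments. The authors aligned reads to hg19 with STAR 2.3.1z (version from the submitters' processing notes) and deposited raw counts of exon reads, made with iRNA-seq for each RefSeq transcript. The handling of strand and of reads with several matches is not given in the sources used here. The authors also deposited regularized log2 values and the log2 fold change of their DESeq2 comparison, with a mean normalized signal, a standard error and a test statistic (both scores), and a p-value for each transcript. None of these was used, and the deposited counted exon length was used for counts per kb. File starts are counted from 0 and are given here plus 1.

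edgeR 4.0.16 (R 4.3.3) was run on the raw counts with TMM factors. Genes were kept by filterByExpr (minimum count 10), and p-values of the quasi-likelihood test were adjusted by Benjamini-Hochberg over the 13322 genes kept, with 0.05 as threshold. Normalized counts are TMM-scaled to the mean total of 17911210. The F statistic gave the standard error and 95% interval of each log2 fold change. An exact permutation test of a single gene cannot give a p below 0.1 with 3 against 3 and was not used for calls. On simulated counts of 13127 genes for this comparison, edgeR recovered 76 of 95 genes changed by 1 on the log2 scale and 89 of 98 changed by 2, with 10 false calls. Far fewer genes were changed in the simulation than were called in these data, so these rates need not hold for the calls given here.

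The members, role groups and lists were chosen with earlier results of these data known. Every member is given with its log2 fold change. Full statistics are given for the 2 genes with the smallest adjusted p in each role group and for SREBF1, SREBF2, SCAP and INSIG1, and from each other list values are given for the 2 genes with the smallest adjusted p under 0.05 and a mean of at least 100 normalized counts. FASN was given in full, and MVD, SQLE, ELOVL6 and HSD17B7 with their counts and intervals, after their values were seen. Alternatives were a replicate block, the Wald test of DESeq2 1.42.0, its size factors, library totals only, no filter on low counts, a minimum of 10 in every sample, a change of at least 2-fold, and each library left out. Corrections for GC content and length, as offsets, were added after the data were seen. Uniqueness of stretches of 50 bases was counted over GRCh37 with Python 3.11.15, and promoter sequences are from RefSeq. Uniqueness and exon overlap were taken from the annotated transcript closest in span to the deposited one, whose exons can differ from those counted. Some marker genes are not reported here.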

Additional observations from a re-analysis of the deposited data

How the results depend on the processing

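Of the 23 genes lower, 18 were lower in all 13 alternatives other than the 2-fold threshold (GC and length offsets included), and the other 5 were ACAT2, PMVK, TM7SF2, EBP and ACLY. The like share among all genes called lower was not counted, so 18 of 23 cannot be read as particular to these genes. With each library left out the number lower was 18 to 25. Requiring a change of at least 2-fold left 9 of the 30 genes lower, 747 lower and 886 higher of all genes, and 5 lower and 6 higher of the other lipid genes. Leaving out each library gave 1629 to 2575 genes lower and 1706 to 3002 higher over all genes, with the lowest counts without guadecitabine replicate 3. Offsets for GC content and length, chosen after seeing the data, gave 27 of the 30 genes lower and 1 higher, MVD. The genes newly called lower were SQLE, NSDHL, SC5D and STARD4. Over all genes these offsets gave 3014 lower and 3286 higher, against 2446 and 2576 in the main analysis, and the cause was not tested. ELOVL6 ranged from -0.28 to 0.021 with each library left out, the latter without guadecitabine replicate 2. With no filter 19 of the 30 genes were lower, against 11.9% of all genes. With the Wald test of DESeq2 24 were lower, against 19.7% of all genes.

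Same-numbered libraries did not all deviate together (correlations of -0.30, 0.33 and -0.01 for numbers 1, 2 and 3), so the numbers are not taken as pairs. Vehicle replicate 2 and guadecitabine replicate 2 correlated best with each other, and no other library correlated best with its own number. With the replicate number as a block, 2230 genes were lower and 2424 higher, 21 of the 30 genes were lower, without ACAT2 and ACLY, and 22 other lipid genes were lower and 15 higher. Guadecitabine replicate 2 had the lowest total, and low genes such as HSD17B7 are limited by depth.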

Other observations

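Genes of fatty acid oxidation, the breakdown pathway, gave 4 lower and 2 higher of 17 tested genes at an adjusted p of 0.05 (edgeR), with a median log2 fold change of -0.07. Of all genes tested, 18.4% were called lower and 19.3% higher. HADH, a dehydrogenase of mitochondrial beta-oxidation, had 1509, 1589 and 1485 normalized counts in vehicle and 576, 458 and 599 after guadecitabine (log2 fold change -1.48, SE 0.123, adjusted p = 2.99e-05, edgeR). Every treated library of HADH lay below every vehicle library. CPT1C, a brain-enriched member of the carnitine palmitoyltransferase family, had 189, 219 and 165 in vehicle and 274, 362 and 292 after guadecitabine (log2 fold change 0.69, SE 0.162, adjusted p = 0.00955, edgeR). ELOVL2, an elongase of polyunsaturated fatty acids named after its values were seen, was at 0 counts in vehicle replicates 1 and 2 and at 24 in vehicle replicate 3, against 227, 70 and 165 counts after guadecitabine.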
